A study of Mus musculus with 12 samples.

Results

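The genes described here encode the constitutive proteasome, measured in cultured intestinal subepithelial myofibroblasts (ISEMFs) from mouse colon, which are contractile stromal cells beneath the gut epithelium. They were chosen by symbol, as every gene of the array named Psma to Psmg with a number, without the 3 inducible subunits Psmb8, Psmb9 and Psmb10. The array held 46 such symbols out of 19057, and 41 were kept. The 11060 genes kept in all had a detection p below 0.05 on 3 or more of the 12 arrays. Of the 41, Psmc3ip and Psme3ip1 match by symbol only and are not subunits, which left 39 genes in the classes below. The arrays came from 6 ISEMF lines, 3 null for the microRNA cluster miR-143/miR-145 (KO4, KO10 and KO15) and 3 wild type for it (WT5, WT7 and WT13). Each line was measured with and without lipopolysaccharide (LPS), a component of bacterial walls that TLR4 senses, given at 1 ug/mL for 24 h. This gave KO with LPS, WT with LPS, KO untreated and WT untreated, with 3 arrays in each of the 4 groups. All 4 groups grew in the same high-glucose medium with serum, insulin, transferrin and EGF. Separate animals are not stated in the labels, so the p-values refer to the spread among these lines only. Probes for the deleted microRNAs were not analysed here, so the genotype labels were not checked.

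The proteasome degrades proteins that carry ubiquitin chains. Its barrel-shaped core has outer rings of alpha subunits, encoded by Psma genes, and inner rings of beta subunits, encoded by Psmb genes, 3 of which (Psmb5, Psmb6 and Psmb7) carry the proteolytic sites. A regulatory particle caps the barrel: its base (Psmc genes, Psmd1, Psmd2 and Psmd4) unfolds substrates with ATP, and its lid (other Psmd genes) holds the enzyme that removes ubiquitin. The Psme genes encode alternative caps, called activators, and the Psmg genes with Psmd5, Psmd9 and Psmd10 encode chaperones that help to assemble the particle. In many cell types inflammatory signals, interferon gamma above all, induce the Psme1 and Psme2 activator and replace the catalytic subunits by Psmb8, Psmb9 and Psmb10. When proteasome capacity falls short, the transcription factor NRF1 (encoded by Nfe2l1) raises many of these subunit genes together.

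Median raw bead signals ran between 115.5 and 136.1 over the arrays, and detected probes between 19223 and 20249, both highest on the LPS array of WT13. That array also had the lowest mean correlation with its group (0.987). All LPS arrays were on one slide and all untreated arrays on another, and the effect of LPS cannot be told apart from that of the slide. On each slide the KO arrays and the WT arrays held separate positions, and the 2 factors cannot be told apart. Values are log2 intensities after background correction and quantile normalisation, and a level of one probe is not set against that of another. Contractile markers were kept (7 of 7), as were fibroblast markers (8 of 8). Of these, Cnn1 was detected on 5 of 12 arrays, 0 of them with LPS, and Lum on 9 of 12. Of 8 leukocyte and macrophage markers on the array, 6 were kept, and the leukocyte marker Ptprc and the myeloid marker Itgam were not. The mean log2 level of the 6 was 6.45 to 7.51 on KO LPS arrays, 7.15 to 7.43 on WT LPS arrays, 6.29 to 7.24 on KO untreated arrays and 6.69 to 7.26 on WT untreated arrays. They did not move one way with LPS. Cd14 was called higher (log2 change 1.43 in KO lines and 1.62 in WT lines), as was Adgre1, which was detected on all 6 LPS arrays but on 1 of 3 untreated arrays of each genotype, so no size is given for it. Cd3e was called lower (-0.93 in KO lines and -1.26 in WT lines). The other macrophage markers were not called, with Lyz2 at -0.87 in KO lines and -0.70 in WT lines, Tyrobp at -0.21 and -0.26, and Csf1r at 0.14 and 0.12 in the same lines. Of 9 epithelial markers 5 were kept, of 5 endothelial 4, and of 3 enteric glia markers 1. No epithelial marker was called, with Krt18 at -1.11 in KO lines and -1.01 in WT lines with LPS. The endothelial gene Emcn, detected on 11 of 12 arrays, was called lower with LPS in both genotypes. It was also called lower in KO than in WT lines, with LPS (-0.74, limma adjusted p = 0.0447) and untreated (-0.80, adjusted p = 0.0350). The contractile gene Myh11 fell by 1.495 in KO lines and by 1.28 in WT lines on the log2 scale, the largest fall of the 7 contractile markers. Tagln, Myl9 and Vim were also called lower in both genotypes, and Cnn1 in WT lines only. Acta2 was not called, at 0.004 in KO lines and -0.016 in WT lines, nor was Des, at -0.48 and -0.46 in the same lines. Acta2 read 15.19 to 15.28 on all 12 arrays, with the same few normalised values recurring. Whether a change could show at so high a level was not tested. The part of these shifts in the proteasome values was not tested, and in bulk RNA fewer cells of a type and less RNA per cell cannot be told apart.

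With LPS, 5 of the 39 proteasome genes rose in KO lines and 12 of 39 rose in WT lines, and none was called lower in either (limma, two-sided, Benjamini-Hochberg over all 11060 genes at 0.05). At an unadjusted p under 0.05, 8 of 39 were higher and 2 lower in KO lines, and 16 of 39 were higher and 2 lower in WT lines. Of all genes, 28.4% passed that threshold in KO lines, 15.5% as lower, and 37.5% passed it in WT lines, 21.3% as lower. The lower ones were Psmd5 and Psmg3 in KO lines and Psmd5 and Psmg2 in WT lines. Of all genes tested, 7.45% were called higher and 7.22% lower in KO lines, against 10.5% called higher and 12.3% lower in WT lines. As a share, 12.8% of the proteasome genes were called in KO lines and 30.8% in WT lines. The genes called in both were the lid deubiquitinase gene Psmd14, the base ATPase gene Psmc6, the activator gene Psme1 and the chaperone genes Psmd9 and Psmd10. The median log2 change over the 39 was 0.077 in KO lines and 0.16 in WT lines, beside -0.033 and -0.055 over all genes in the same lines. Of the 39, 31 had a positive difference in KO lines and 29 in WT lines. Over all genes, 44.7% had a positive difference in KO lines and 42.7% in WT lines. LPS and untreated arrays did not overlap for 17 of the 39 genes in KO lines (13 above and 4 below) and for 22 of 39 in WT lines (18 above and 4 below). Over all genes they did not overlap in 37.1% in KO lines and 39.9% in WT lines.

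These counts depended on single arrays and on scaling. Leaving out 1 array at a time gave 3 calls in KO lines without untreated KO4, 2 without untreated KO10 and 2 without LPS KO10. In WT lines it gave 7 calls without untreated WT5, 6 without untreated WT7, 6 without untreated WT13 and 9 without LPS WT13. Psmd14 and Psmd9 were called in KO lines in every such fit, and Psmd14, Psmc6, Psmd9, Psmd10, Psme1 and Psmb3 in WT lines. The other 3 KO calls and the other 6 WT calls were each lost in several of them. Of 6 such fits in KO lines, Psmc6 was called in 3, and Psmd10 and Psme1 in 2 each. Of 6 in WT lines, Psmd6 was called in 3, Psma4 in 2, and Psma5, Psmb1, Psmb6 and Psmc1 in 1 each. Scaling each array to its 75th percentile gave 4 higher and 4 lower calls in KO lines, and 8 higher and 3 lower calls in WT lines. The authors' processed values gave 5 higher and 2 lower calls in KO lines, and 15 higher and 2 lower calls in WT lines. With the line as a random block the counts were 6 higher and 2 lower in KO lines, and 15 higher and 2 lower in WT lines. The genes called lower in these fits were the chaperone genes Psmd5, Psmg2 and Psmg3 and, with 75th percentile scaling, the base gene Psmd4. Called higher in WT lines above but not with 75th percentile scaling were Psma4, Psmb1, Psmb6, Psmc1 and Psmd6, and in KO lines Psme1.

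**Figure D1:**
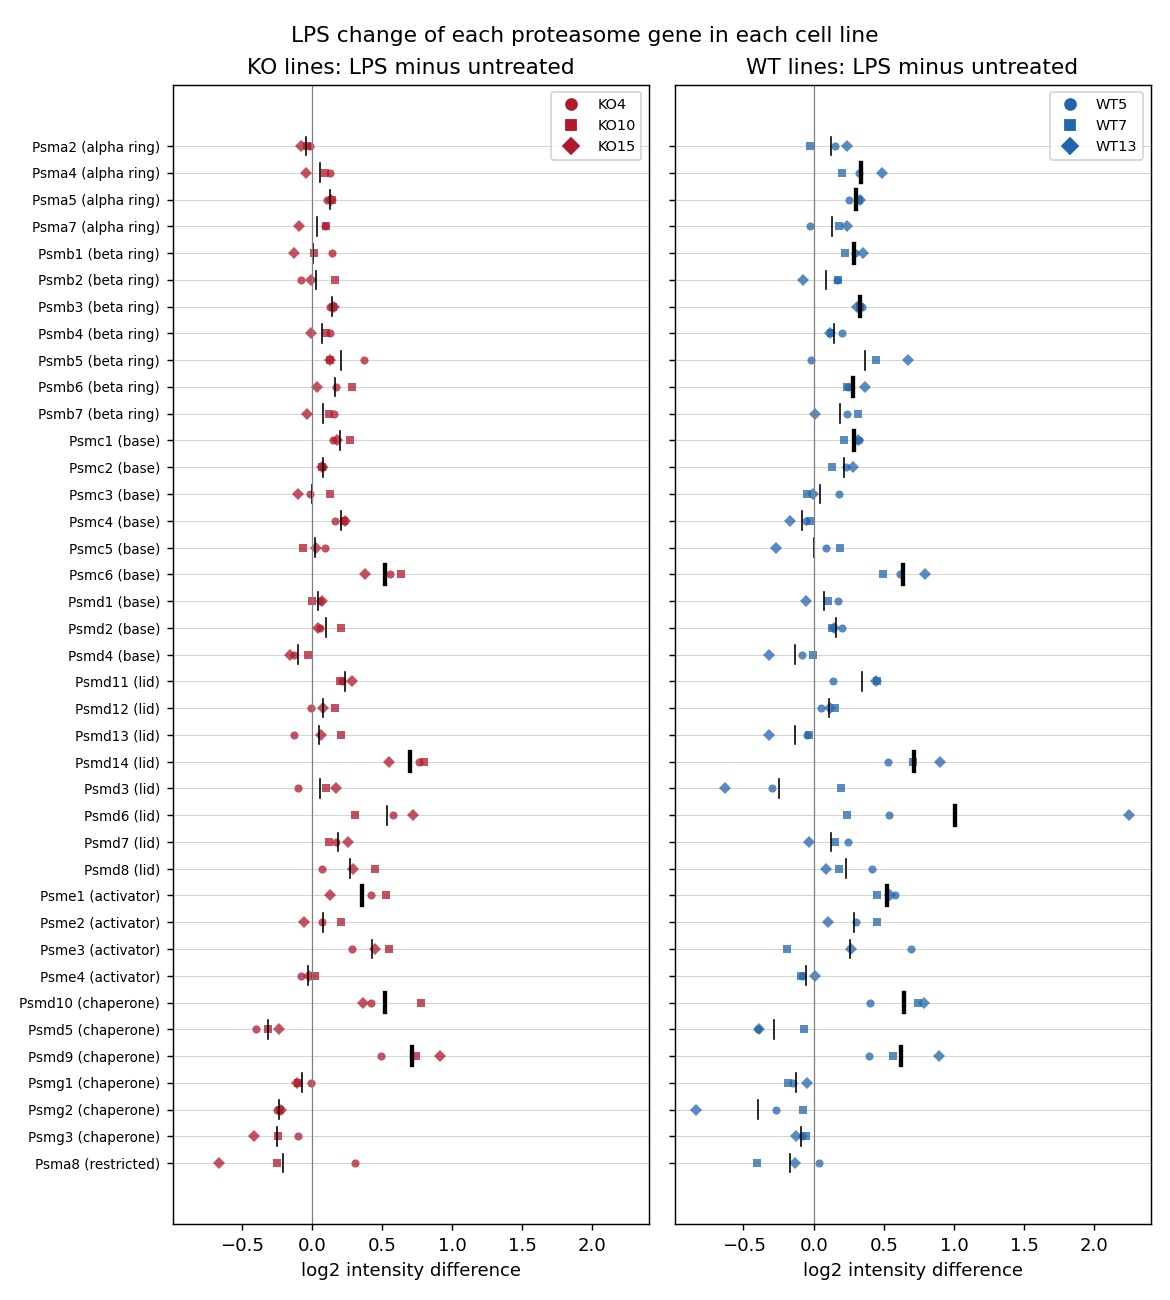
LPS minus untreated log2 intensity (x axis) of the 39 proteasome genes (rows, with their class) in each KO line (left) and each WT line (right). Points are lines, black bars are the means of 3 lines, and thick bars mark the 5 genes called in KO lines and the 12 called in WT lines. Psmd14, Psmc6, Psme1, Psmd9 and Psmd10 lie right of 0 in all 6 lines, and Psma8 and Psmd3 were near background.

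The promoters of genes that moved are shown first, for the letters in them of 2 motifs known from stress and interferon responses. The first is TGACNNNGC, the core of the antioxidant response element, bound by NRF1 and NRF2 (encoded by Nfe2l2). The second is a pair of GAAA repeats with any 2 bases between them, the core of the interferon response element. RefSeq (GRCm38.p6) windows of 250 bases before to 50 after the start, searched on both strands, were found for 31 of the 39 proteasome genes, in 33 windows. TGACNNNGC was in 6 of 33 windows (18.2%) and in 12.4% of all 32851 windows. The GAAA pair was in 4 of 33 windows (12.1%) and in 3.44% of all windows. TGACNNNGC begins with letters shared by the sites of other bZIP factors, and a match is a description of the letters only. The stretches below come from the 4 genes that rose in WT lines and have a motif wholly upstream of the start used for the window. These are Psmd9, Psmc6, Psmb6 and Psmb3, and a further stretch is from Psmb5, a catalytic subunit gene that was not called. The Psmb6 gene is annotated from chr11:70525324, so its match lies inside the annotated gene, upstream only of the start used for its window. Capitals mark the match, which is read as its reverse complement in Psmc6 and Psmb3. They lie at chr5:123228129-123228189 (plus strand) and chr5:123228001-123228070 (plus strand) for Psmd9, chr14:45329574-45329635 (plus strand) for Psmc6, chr11:70525318-70525356 (plus strand) for Psmb6, chr11:97703241-97703310 (plus strand) for Psmb3 and chr14:54618004-54618072 (minus strand) for Psmb5.
Psmd9, antioxidant motif: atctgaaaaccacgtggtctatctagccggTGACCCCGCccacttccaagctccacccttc
Psmd9, interferon motif: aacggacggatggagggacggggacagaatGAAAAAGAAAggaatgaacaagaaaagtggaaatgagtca
Psmc6, antioxidant motif: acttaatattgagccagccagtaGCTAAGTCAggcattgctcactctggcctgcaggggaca
Psmb6, antioxidant motif: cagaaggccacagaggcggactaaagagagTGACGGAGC
Psmb5, antioxidant motif: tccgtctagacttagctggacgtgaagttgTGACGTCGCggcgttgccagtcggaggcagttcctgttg
Psmb3, interferon motif: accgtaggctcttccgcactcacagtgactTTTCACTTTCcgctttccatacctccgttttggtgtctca
In Psmd9, which held both, the matches do not overlap. The other proteasome genes with TGACNNNGC were Psmd12 and Psme4, and the others with the GAAA pair were Psmd4 and Psme1. Of these 4, Psme1 was called with LPS.

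In the core, 0 of 11 kept genes were called in KO lines and 5 of 11 in WT lines with LPS. Here and for the classes below, the share of all genes called higher was 7.45% in KO lines and 10.5% in WT lines. The median log2 change of the core was 0.074 in KO lines, with 10 of 11 positive, and 0.28 in WT lines, with 11 of 11 positive. Past an unadjusted p of 0.05 there were 0 of 11 in KO lines and 6 of 11 in WT lines, beside the 28.4% and 37.5% of all genes given above for the same lines. Under 75th percentile scaling the core median was -0.050 in KO lines, with 3 of 11 positive, and 0.21 in WT lines, with 11 of 11 positive. The 5 called in WT lines were the alpha ring genes Psma4 and Psma5 and the beta ring genes Psmb1, Psmb3 and Psmb6.

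Psma4, which encodes a subunit of the outer ring, stood at 12.95, 12.91 and 12.89 on the LPS arrays of KO4, KO10 and KO15, against 12.81, 12.82 and 12.93 on their untreated arrays. In WT5, WT7 and WT13 it stood at 12.96, 12.87 and 13.18 with LPS, against 12.64, 12.67 and 12.69 untreated. The LPS and untreated ranges overlapped in KO lines and were apart in WT lines. Its log2 change was 0.06 (SE 0.093, limma adjusted p = 0.723) in KO lines and 0.34 (SE 0.093, adjusted p = 0.0224) in WT lines, a 1.26-fold rise. Psma5 stood 0.30 higher with LPS in WT lines (adjusted p = 0.0284), where Psma7 changed by 0.13 (adjusted p = 0.334) and Psma2 by 0.12 (adjusted p = 0.325). RefSeq lists pseudogene copies of Psma5, Psmb5, Psmb6 and Psmb7, and whether those probes also bind them was not tested.

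Psmb3, a structural subunit of the inner ring, was measured at 12.93, 12.998 and 13.04 on KO LPS arrays, against 12.80, 12.85 and 12.88 on KO untreated arrays. The WT LPS arrays read 13.20, 13.10 and 13.09, against 12.85, 12.77 and 12.78 on WT untreated arrays. LPS arrays were above untreated arrays in both genotypes, with a change of 0.14 (adjusted p = 0.262) in KO lines and 0.33 (SE 0.080, adjusted p = 0.0125) in WT lines. Psmb1, another structural subunit, changed by 0.01 (adjusted p = 0.952) in KO lines and rose by 0.29 (adjusted p = 0.0394) in WT lines. Psmb4 changed by 0.07 in KO lines and 0.15 in WT lines, and Psmb2 by 0.03 in KO lines and 0.09 in WT lines, none of them called.

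Of the catalytic genes, only Psmb6, which carries the caspase-like site, passed the test. It stood at 12.69, 12.83 and 12.64 on KO LPS arrays, against 12.51, 12.54 and 12.61 on KO untreated arrays, and at 12.82, 12.79 and 12.86 on WT LPS arrays, against 12.57, 12.56 and 12.49 on WT untreated arrays. All LPS arrays were above all untreated arrays within each genotype. The log2 change was 0.17 (SE 0.083, adjusted p = 0.211) in KO lines and 0.28 (SE 0.083, adjusted p = 0.0300) in WT lines, and with the line as a fixed block the WT call was lost (adjusted p = 0.0504).

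Psmb5, which carries the chymotrypsin-like site, stood at 10.56, 10.19 and 10.35 on KO LPS arrays, against 10.19, 10.06 and 10.22 on KO untreated arrays. On WT LPS arrays it stood at 10.24, 10.59 and 10.72, against 10.25, 10.14 and 10.04 on WT untreated arrays. WT5 was the exception among WT lines, with no higher level on its LPS array. The change was 0.21 (adjusted p = 0.335) in KO lines and 0.37 (SE 0.13, adjusted p = 0.0664) in WT lines, called in WT lines with the authors' processed values (adjusted p = 0.0454) and with the line as a random block (adjusted p = 0.0415). Psmb7, which carries the trypsin-like site, changed by 0.08 (adjusted p = 0.640) in KO lines and by 0.19 (adjusted p = 0.191) in WT lines. Its WT LPS arrays stood at 12.76, 12.77 and 12.45, with WT13 apart below the others. These Psmb7 values are of the brightest of 4 kept probes. At another, KO LPS arrays stood at 12.44, 12.41 and 12.33, against 12.50, 12.52 and 12.44 on KO untreated arrays. The remaining Psmb7 probes were higher with LPS on average in KO lines.

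In the base, 1 of 9 genes was called in KO lines and 2 of 9 in WT lines. The median change was 0.077 in KO lines and 0.074 in WT lines, and under 75th percentile scaling it was -0.067 in KO lines and -0.036 in WT lines. With the mean over probes the base median was 0.15 in KO lines and 0.28 in WT lines. With the dimmest kept probe it was 0.21 in KO lines and 0.35 in WT lines, above the core medians of 0.074 and 0.30 in that fit. Psmc6, one of the ring of ATPases, was called in both. It stood at 6.60, 6.38 and 6.37 on KO LPS arrays, against 6.04, 5.75 and 5.99 on KO untreated arrays. Its WT LPS arrays stood at 6.41, 6.55 and 6.88, against 5.79, 6.05 and 6.09 on WT untreated arrays. LPS and untreated arrays did not overlap in either genotype. The rise was 0.52 (1.44-fold, adjusted p = 0.0247) in KO lines and 0.64 (1.55-fold, adjusted p = 0.00706) in WT lines. With the authors' processed values it was 0.22 (adjusted p = 0.0456) in KO lines and 0.28 (adjusted p = 0.0112) in WT lines.

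The other ATPase gene called was Psmc1, which was 0.29 higher with LPS in WT lines (adjusted p = 0.0439) and 0.20 higher in KO lines (adjusted p = 0.177). The remaining 7 base genes were not called in either genotype, among them the ubiquitin receptor gene Psmd4 (-0.10 in KO lines and -0.14 in WT lines) and the scaffold gene Psmd2 (0.10 in KO lines and 0.16 in WT lines). The other scaffold gene, Psmd1, changed by 0.04 in KO lines and 0.07 in WT lines. Its dimmest probe stood at 8.92, 8.67 and 9.63 on WT LPS arrays, against 8.26, 8.36 and 8.29 on WT untreated arrays. With that probe and with the mean over probes Psmd1 was called higher in WT lines but not in KO lines. Of the other ATPase genes, Psmc4 changed by 0.21 in KO lines and -0.08 in WT lines, Psmc2 by 0.08 and 0.21 in the same lines, and Psmc3 and Psmc5 by 0.05 or less in both.

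In the lid, 1 of 8 genes was called in KO lines and 2 of 8 in WT lines, with a median change of 0.21 in KO lines and 0.18 in WT lines. The lid median was 0.096 in KO lines and 0.092 in WT lines under 75th percentile scaling, 0.24 and 0.44 with the mean over probes, and 0.11 and 0.61 with the dimmest kept probe. Psmd14, the metalloprotease that removes ubiquitin chains from substrates, had the smallest adjusted p of the 39 genes in both genotypes. It stood at 10.40, 10.46 and 10.27 on KO LPS arrays, against 9.64, 9.66 and 9.71 on KO untreated arrays. On WT LPS arrays it stood at 10.36, 10.32 and 10.48, against 9.83, 9.61 and 9.58 on WT untreated arrays. All 6 LPS arrays were above all 6 untreated arrays. Psmd14 rose by 0.70 (1.63-fold, SE 0.096, adjusted p = 0.00071) in KO lines and by 0.71 (1.64-fold, SE 0.096, adjusted p = 0.000438) in WT lines. The other Psmd14 probe gave 0.40 in KO lines (SE 0.26, adjusted p = 0.355 over all probes), where it was not called, and 0.86 in WT lines (SE 0.26, adjusted p = 0.0351). At that probe the LPS arrays stood at 10.05, 9.89 and 10.03 in KO lines, against 9.39, 9.47 and 9.89 on KO untreated arrays, and LPS WT13 was the highest of all, at 11.10.

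Psmd6, a structural lid subunit, stood at 7.02, 6.87 and 7.22 on KO LPS arrays, against 6.44, 6.56 and 6.50 on KO untreated arrays. In WT lines with LPS it stood at 6.93, 6.70 and 8.43, against 6.40, 6.46 and 6.19 on WT untreated arrays, and the high value was that of WT13. The change was 0.54 (SE 0.33, adjusted p = 0.316) in KO lines and 1.01 (SE 0.33, adjusted p = 0.0444) in WT lines. That SE pools the spread of all 4 groups and is not the spread of the KO lines. The SD was 0.94 on WT LPS arrays, 0.18 on KO LPS arrays and 0.06 on KO untreated arrays. In KO lines, too, all LPS arrays were above all untreated arrays. Without the LPS array of WT13 the WT change was 0.47 (adjusted p = 0.0289), and without any 1 untreated WT array its adjusted p was 0.0838 to 0.125. With the authors' processed values the WT change was 0.59 (adjusted p = 0.0661). Psmd11, which helps to hold lid and base together, changed by 0.23 (adjusted p = 0.218) in KO lines and 0.35 (adjusted p = 0.0521) in WT lines. The other lid genes were not called: Psmd8 changed by 0.27 in KO lines and 0.23 in WT lines, Psmd7 by 0.19 and 0.12, Psmd12 by 0.08 and 0.11, and Psmd13 by 0.05 and -0.13 in the same lines. Psmd3 was detected on 4 of 12 arrays, and no fold is given for it.

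Among the activators, Psme1 was called in both genotypes and Psme2, Psme3 and Psme4 in neither. Psme1, the alpha subunit of the interferon-inducible cap, stood at 11.07, 11.22 and 10.88 on KO LPS arrays, against 10.65, 10.69 and 10.75 on KO untreated arrays. On WT LPS arrays it stood at 11.13, 11.02 and 11.09, against 10.55, 10.57 and 10.54 on WT untreated arrays. The groups were apart in both genotypes, and KO15 had the lowest of the 6 LPS values. Psme1 rose by 0.36 (1.28-fold, SE 0.095, adjusted p = 0.0252) in KO lines and by 0.52 (1.44-fold, SE 0.095, adjusted p = 0.00268) in WT lines.

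Psme2, the beta subunit of the same cap, changed by 0.08 (adjusted p = 0.687) in KO lines and by 0.29 (adjusted p = 0.0701) in WT lines. It has a near-identical copy, Psme2b, so its probe is uncertain as to which it reads. In WT lines it was called with the authors' processed values (adjusted p = 0.0416), with 75th percentile scaling (0.0481) and with the line as a random block (0.0403). Psme3, the nuclear activator, stood at 10.60, 10.78 and 10.67 on KO LPS arrays, against 10.31, 10.23 and 10.21 on KO untreated arrays, a change of 0.43 (SE 0.15, adjusted p = 0.0781) that was called with the line as a random block (adjusted p = 0.0497). The WT LPS arrays stood at 10.80, 10.08 and 10.58, against 10.10, 10.27 and 10.31 on WT untreated arrays, and WT7 went down where WT5 and WT13 went up. The SE of Psme3 also pools the 4 groups. Its SD was 0.37 on WT LPS arrays, 0.09 on KO LPS arrays and 0.05 on KO untreated arrays. Psme4, a single-chain activator, changed by -0.03 in KO lines and -0.05 in WT lines.

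**Figure D2:**
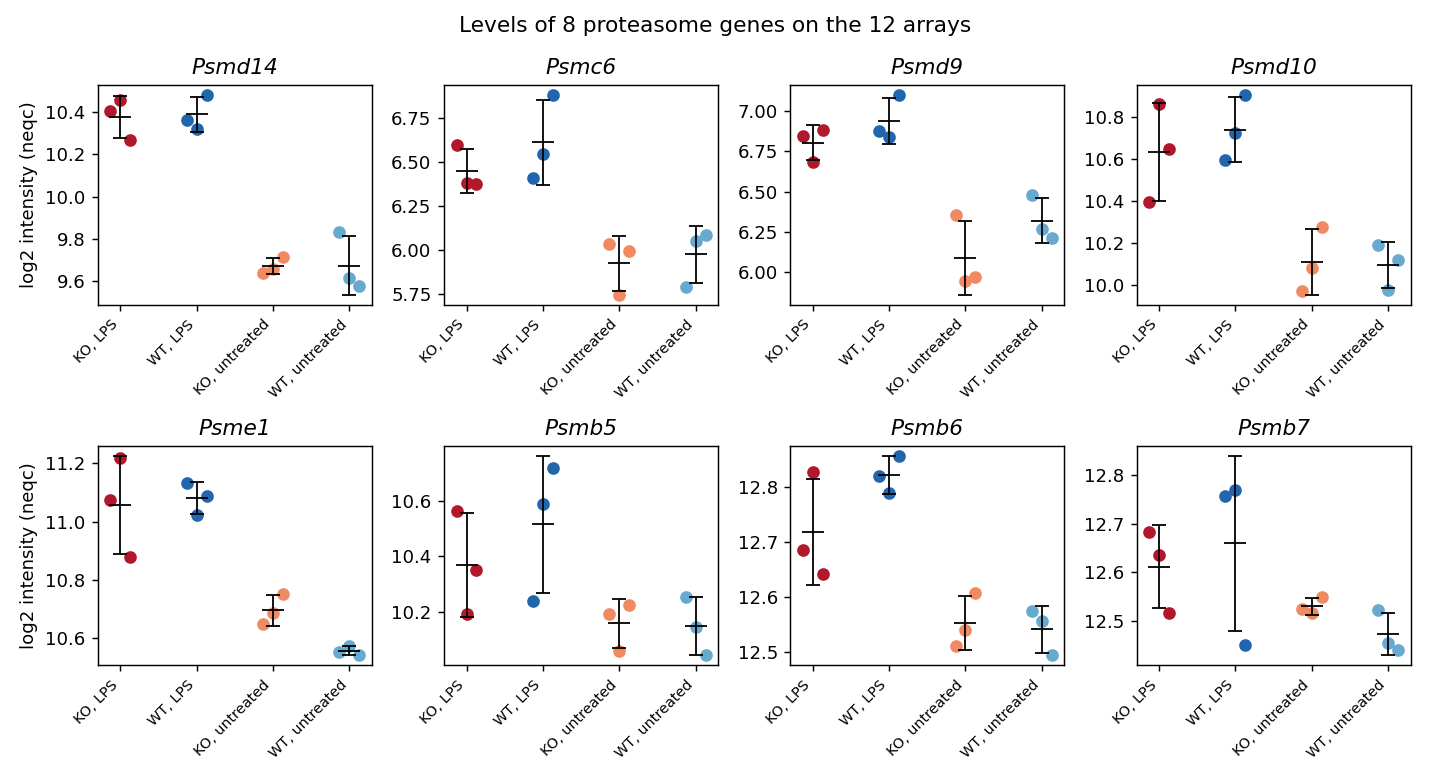
Log2 intensity (y axis, own range per panel) of 8 proteasome genes on the 12 arrays, grouped as KO with LPS, WT with LPS, KO untreated and WT untreated. Points are arrays, and bars are the mean and SD of 3 arrays. Psmd14 stands between 10.27 and 10.48 on all 6 LPS arrays and between 9.58 and 9.83 on all 6 untreated arrays.

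Of the 6 kept chaperone genes, Psmd9 and Psmd10 rose in both genotypes and the other 4 had negative differences in both, none of them called. Psmd9, a chaperone of base assembly, stood at 6.85, 6.68 and 6.88 on KO LPS arrays, against 6.35, 5.94 and 5.97 on KO untreated arrays. On WT LPS arrays it stood at 6.88, 6.84 and 7.10, against 6.48, 6.27 and 6.21 on WT untreated arrays. LPS arrays were above untreated arrays in both genotypes, by 0.72 (1.64-fold, SE 0.13, adjusted p = 0.00364) in KO lines and 0.62 (1.54-fold, SE 0.13, adjusted p = 0.00574) in WT lines. A second Psmd9 probe went against this, with -0.42 in KO lines (SE 0.18, adjusted p = 0.152 over all probes) and 0.05 in WT lines. With the authors' processed values the first probe gave 0.33 in KO lines and 0.31 in WT lines, both called. With the mean over probes neither call held, at 0.15 (adjusted p = 0.505) in KO lines and 0.33 (adjusted p = 0.0901) in WT lines.

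Psmd10, known as gankyrin, also binds the base during assembly. It stood at 10.40, 10.86 and 10.65 on KO LPS arrays, against 9.97, 10.08 and 10.28 on KO untreated arrays. Its levels on WT LPS arrays were 10.59, 10.72 and 10.91, against 10.19, 9.98 and 10.12 on WT untreated arrays. The rise was 0.52 (1.44-fold, adjusted p = 0.0220) in KO lines and 0.64 (1.56-fold, adjusted p = 0.00564) in WT lines, and both other Psmd10 probes were called higher in both genotypes. Psmd5 changed by -0.32 (adjusted p = 0.0765) in KO lines and -0.28 (adjusted p = 0.0795) in WT lines. Psmg2, which helps to build the alpha ring, changed by -0.23 in KO lines and -0.39 in WT lines, while its 2 other probes had positive values in both genotypes. Psmg1, its partner, changed by -0.07 in KO lines and -0.13 in WT lines, and Psmg3 changed by -0.25 (adjusted p = 0.0743) in KO lines and -0.09 in WT lines.

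Not all genes of the particle could be read. Psma1, Psma3, Psma6, Psmb11 and Psmg4 were on the array but not kept: Psma6 was detected on 1 array, just outside the minimum of 3, and the other 4 on 0. Just inside it were Psmd3, on 4 arrays, and Psma8, a testis form of an alpha subunit, on 6. The other 37 of the 39 genes were detected on all 12 arrays, so for them the filter did not depend on any one group. The symbol matches that are not subunits were not called with LPS, with Psmc3ip at 0.06 in KO lines and 0.13 in WT lines, and Psme3ip1 at 0.12 and 0.02 in the same lines.

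These values rest on the brightest probe of each gene, and other probes of the same gene often gave another value. There were 27 other kept probes for 20 of the 39 genes. The other probe had a higher log2 change than the brightest in 16 of 27 cases in KO lines and in 19 of 27 in WT lines. The median change was 0.16 at the other probes against 0.082 at the brightest in KO lines, and 0.35 against 0.19 in WT lines. In a fit of all kept probes, 4 of the 27 were called higher in KO lines, and 10 were called higher and 1 lower in WT lines. The share of all probes called in that fit was not counted, so these counts have no background beside them. The shares of all genes given above belong to the fit of 1 probe per gene.

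Psmc2, a base ATPase gene, is one such case. Its other probe stood at 8.37, 8.42 and 8.07 on KO LPS arrays, against 7.88, 7.40 and 7.46 on KO untreated arrays, and at 8.55, 8.58 and 8.28 on WT LPS arrays, against 7.67, 7.56 and 7.56 on WT untreated arrays. The change at that probe was 0.71 in KO lines (SE 0.14, adjusted p = 0.00727) and 0.87 in WT lines (SE 0.14, adjusted p = 0.00148), where the brightest Psmc2 probe gave 0.08 and 0.21 in the same lines. Psmd11 gave 0.84 in KO lines and 0.86 in WT lines at its other probe, both called. Psmd12 gave 0.87 in KO lines (adjusted p = 0.0639) and 1.09 in WT lines (adjusted p = 0.0175), where its brightest probe gave 0.08 and 0.11. At that other probe the WT LPS arrays stood at 7.83, 7.53 and 8.64, against 7.42, 6.97 and 6.32 on WT untreated arrays. WT13 held the highest of these LPS values and the lowest of the untreated ones. Psmd8 went the opposite way in WT lines at its dim probe, detected on 11 of 12 arrays, at -0.87 (adjusted p = 0.0415), with the lowest value, 4.30, in WT13. Which transcript forms each probe reads was not tested.

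**Figure D3:**
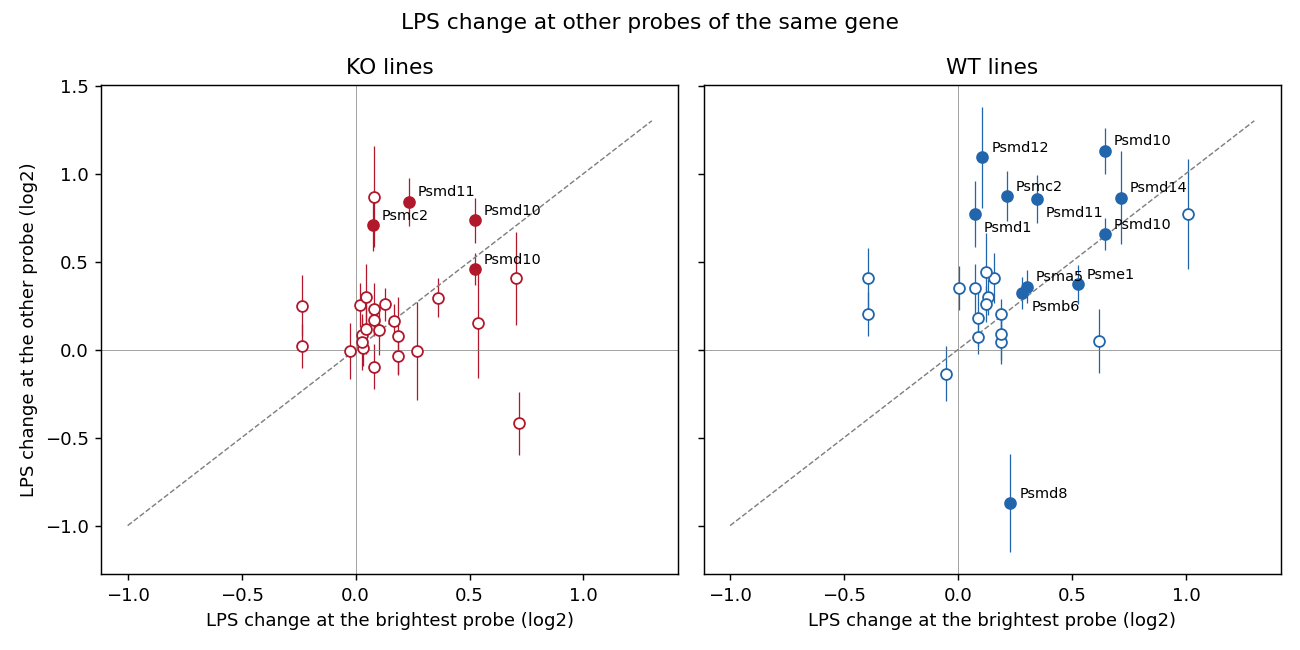
LPS change at 27 other probes of the proteasome genes (y axis, log2, with SE bars) against the change at the brightest probe of the same gene (x axis, log2) in KO lines (left) and WT lines (right). Filled, named points were called in a fit over all probes, and the dashed line marks equal change. Psmc2, Psmd11 and Psmd12 lie far above the line in both panels, with Psmd12 not called and so not named in KO lines. Psmd8 lies far below it in WT lines, as does Psmd9, open and not named, in KO lines.

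The LPS changes of KO and WT lines were compared directly, as KO change minus WT change. No proteasome gene passed the test, and no gene of the 11060 did (0.00% called). At an unadjusted p under 0.05 there were 392 genes (3.54%), among them 1 proteasome gene, Psmc4. This base ATPase gene changed by 0.16, 0.23 and 0.23 in KO4, KO10 and KO15, and by -0.05, -0.02 and -0.17 in WT5, WT7 and WT13. The difference was 0.29 (SE 0.13, limma adjusted p = 0.949), with its KO lines all above its WT lines, a split seen in 6.44% of all genes.

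In the core, all 11 genes had a lower log2 change with LPS in KO lines than in WT lines, with a median difference of -0.16, beside 0.012 over all genes, of which 52.5% had a positive difference. This count was also 11 of 11 under 75th percentile scaling, with the authors' processed values and without background correction. No single core gene passed the test. The median core change of each line was 0.13 in KO4, 0.12 in KO10 and -0.0089 in KO15, against 0.24 in WT5, 0.22 in WT7 and 0.31 in WT13. The KO and WT lines did not overlap in this median.

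For Psma4, Psma5, Psmb1 and Psmb3 every KO line had a lower change than every WT line, beside 5.85% of all genes with such a split. Psma4 differed by -0.28 (SE 0.13, limma adjusted p = 0.949). Psmb1 changed by 0.15, 0.01 and -0.12 in KO4, KO10 and KO15, and by 0.30, 0.22 and 0.35 in WT5, WT7 and WT13, a difference of -0.28 (95% interval -0.56 to 0.0033, adjusted p = 0.949). Over the 39 genes the median half-width of the 95% interval of this difference was 0.29, and 26 intervals lay within 0.5 of 0. The difference of LPS changes had a median of 0.016 in the lid, with 4 of 8 positive (-0.12 with the dimmest kept probe, with 3 of 8 positive), and of -0.041 in the base, with 3 of 9 positive, and it was positive for 2 of 4 activator genes.

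**Figure D4:**
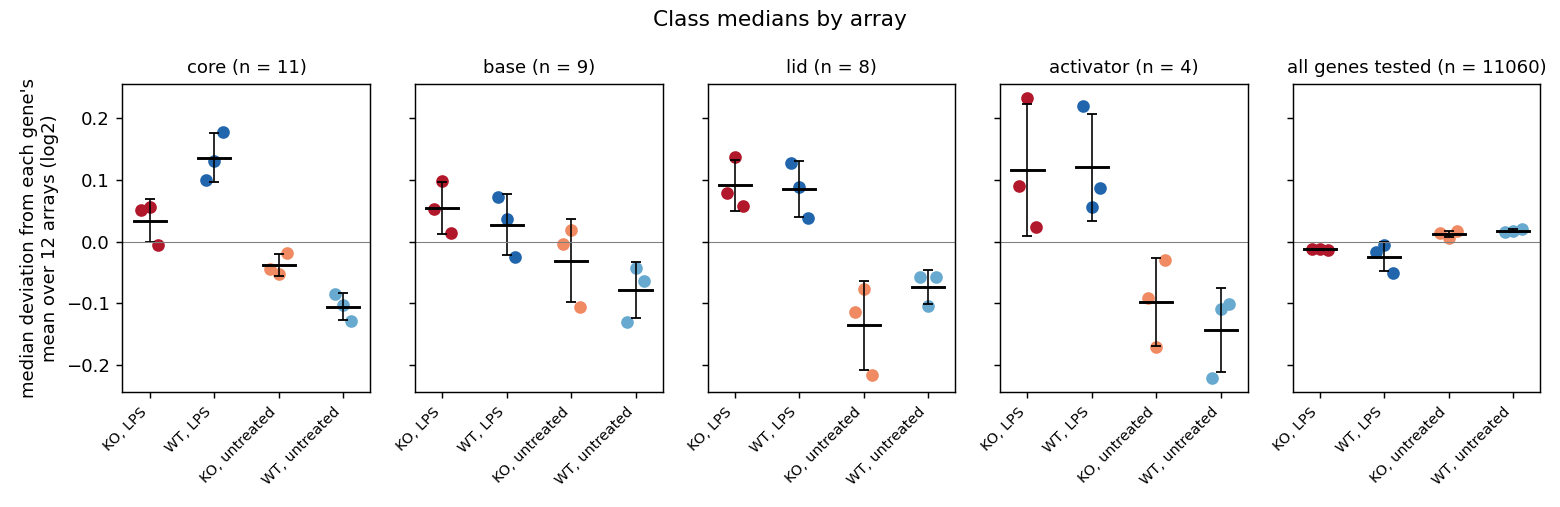
Median, over the genes of a class, of each gene's deviation from its own mean over the 12 arrays (y axis, log2), for the core, base, lid and activator and for all 11060 genes. Points are arrays in the order KO with LPS, WT with LPS, KO untreated and WT untreated, and bars are the mean and SD of 3 arrays. The core medians of the 3 KO LPS arrays lie below those of the 3 WT LPS arrays.

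Between genotypes at the same treatment no proteasome gene passed the test. With LPS 0 of 39 were called, beside 0.325% of all genes, and untreated 0 of 39, beside 0.181% of all genes. At an unadjusted p under 0.05 there were 2 of 39 with LPS (10.8% of all genes) and 0 of 39 untreated (9.11% of all genes). With LPS the 2 were Psmc4 and Psmg3. Psmc4 stood at 12.69, 12.76 and 12.65 on KO LPS arrays, against 12.40, 12.56 and 12.30 on WT LPS arrays, a difference of 0.28 (95% interval 0.083 to 0.48, adjusted p = 0.299). Psmg3, an alpha ring assembly chaperone, stood at 8.87, 8.71 and 8.63 on KO LPS arrays, against 8.95, 8.97 and 8.88 on WT LPS arrays, a difference of -0.19 (adjusted p = 0.443). In both the KO and WT arrays did not overlap, as for 4 of 39 genes with LPS (13.2% of all genes) and 6 of 39 untreated (18.7% of all genes). Next by p was Psmb3, at -0.14 (adjusted p = 0.560).

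Untreated, the smallest p belonged to Psma4, with 12.81, 12.82 and 12.93 on KO arrays and 12.64, 12.67 and 12.69 on WT arrays. The difference was 0.19 (95% interval -0.012 to 0.39, adjusted p = 0.583). Psmd1 differed by 0.17 (adjusted p = 0.591) and Psmg1 by -0.20 (adjusted p = 0.597). The core median difference was -0.083 with LPS, with 0 of 11 positive, and 0.044 untreated, with 10 of 11 positive. Over all genes 52.1% were positive with LPS and 49.3% untreated. With LPS 36 of the 39 intervals of 95% lay within 0.5 of 0, and untreated 35 did. The median half-width of these intervals was 0.21.

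**Figure D5:**
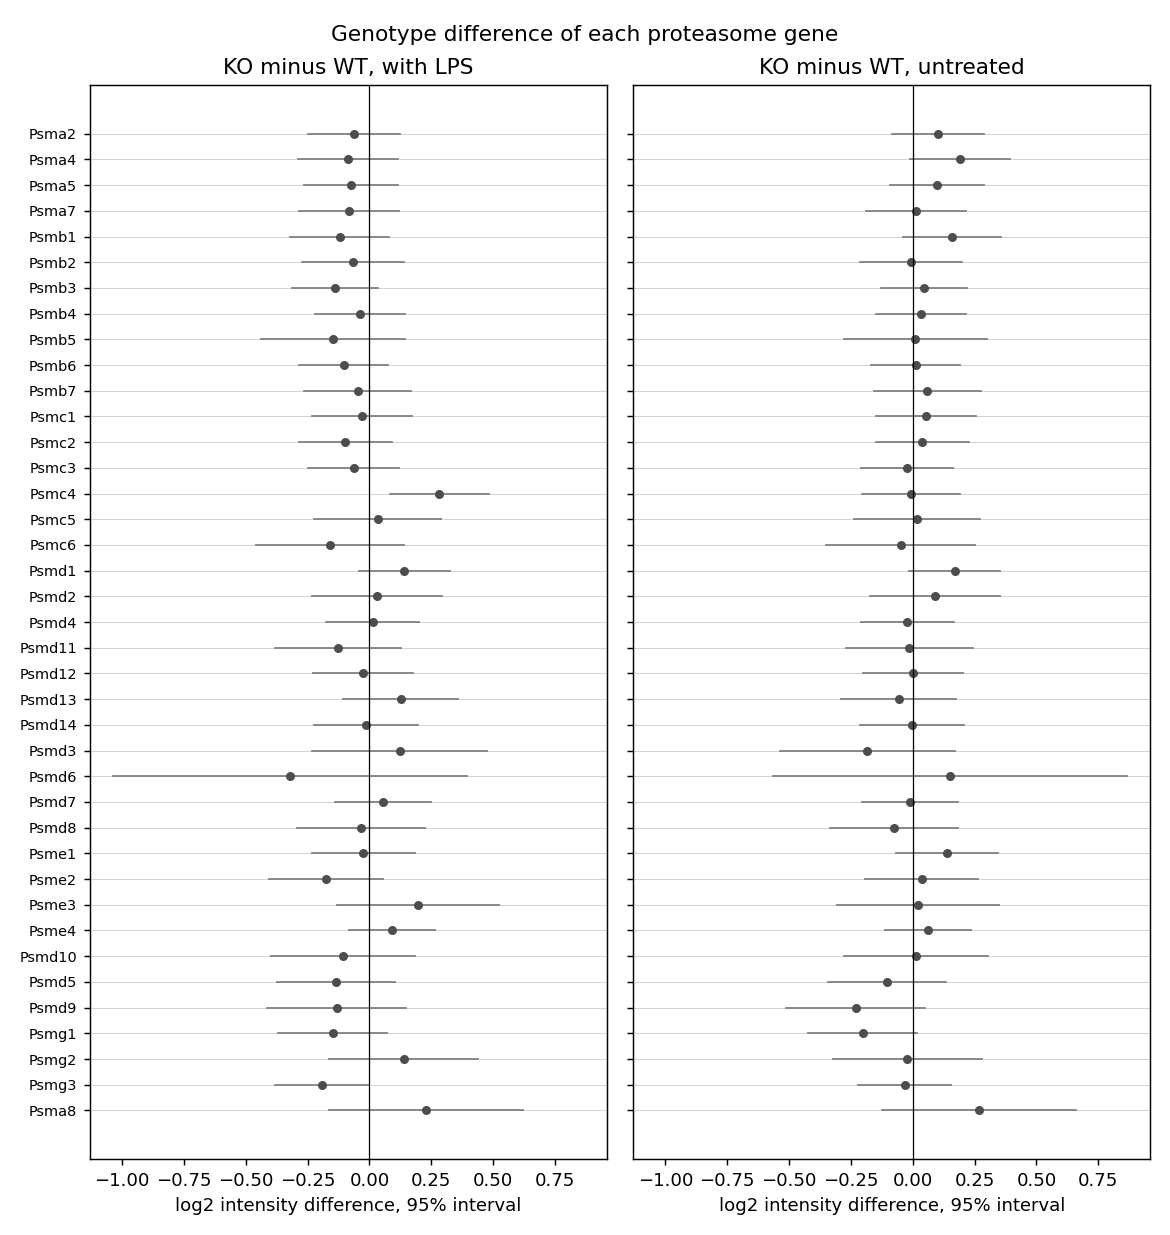
KO minus WT log2 intensity of the 39 proteasome genes (points) with 95% intervals (lines), with LPS (left) and untreated (right). Psmc4 with LPS, at 0.28, has an interval above 0, and the widest intervals are those of Psmd6.

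Genes that act with the proteasome were counted from lists. Of 19 regulators and associated factors, 11 were on the array and 9 were kept. With LPS, 1 of 9 was called in KO lines and 5 of 9 in WT lines, 4 higher and 1 lower. Of all genes, 7.45% were called higher and 7.22% lower in KO lines, and 10.5% higher and 12.3% lower in WT lines. The same shares stand beside the counts of the lists below. Usp14, the deubiquitinase bound to the base, was called in both. It stood at 8.19, 8.22 and 8.02 on KO LPS arrays, against 7.37, 7.35 and 7.69 on KO untreated arrays, and at 8.21, 8.02 and 8.81 on WT LPS arrays, against 7.81, 7.25 and 7.14 on WT untreated arrays. The rise was 0.68 (adjusted p = 0.0484) in KO lines and 0.94 (adjusted p = 0.00767) in WT lines. Higher in WT lines were also Uchl5, a second deubiquitinase of the cap, by 0.52, Ecpas, a proteasome adaptor, by 0.43, and Nfe2l2, which encodes NRF2, by 0.37, while Ube3c, a ubiquitin ligase, was lower, at -0.30. Nfe2l1, which encodes NRF1, was not called, at 0.18 in KO lines (adjusted p = 0.214) and 0.15 in WT lines (adjusted p = 0.267), and Nfe2l2 was not called in KO lines (0.22, adjusted p = 0.188).

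Of 15 ubiquitin genes and shuttle factors, 8 were on the array and 7 were kept. With LPS 1 of 7 was called in KO lines, the shuttle gene Rad23b, at 0.47 (adjusted p = 0.0450). In WT lines 1 of 7 was called, Nsfl1c, a cofactor of the unfoldase VCP, at 0.29 (adjusted p = 0.0324). The 3 inducible subunits, left out of the 39, were called higher in both genotypes. Psmb8 rose by 1.52 in KO lines and 1.96 in WT lines, Psmb9 by 1.08 and 1.36 in the same lines, and Psmb10 by 0.49 and 0.58. Psmb9 was near background untreated, at a mean of 5.18 in KO lines and 4.94 in WT lines, where it was detected on 2 of 3 arrays, so its size of change is uncertain. Their difference between KO and WT lines was not called for any of the 3 (limma smallest adjusted p = 0.949).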

How the data were processed

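RNA of 12 cultures was hybridised to Illumina mouse arrays, 1 array each. The deposited intensity values are linear bead signals without normalisation, per the file headers, and the deposited detection p-value sets each probe against the negative controls, per the file headers. Processed intensity values by the authors were also deposited, linear and quantile normalised as judged from the values. The submitters' processing notes name BeadStudio, with no version given in the sources used here. Signals were normalised with neqc (limma 3.58.1, R 4.3.3, offset 16), which gives log2 values. The deposited files themselves hold no log2 values.

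Probes with 1 gene symbol in the platform annotation and a detection p under 0.05 on at least 3 arrays were kept, and each gene was read at the probe of highest mean, which gave 11060 genes. One fit of 4 group means (lmFit, eBayes, two-sided) gave 5 comparisons, adjusted by Benjamini-Hochberg at 0.05. It pooled the spread of all 12 arrays. With 3 against 3 arrays, the smallest p of an exact permutation test would be 0.1. The fit was tested on simulated data. The arrays of a line are paired by the labels, and a line's deviations with and without LPS correlated across genes at 0.137 to 0.52, and over the 41 kept proteasome symbols at 0.196 to 0.409 in KO lines and -0.341 to -0.164 in WT lines. Over all genes, for every line the best match was its own other array. Alternatives added a replicate block for the line, fixed or random, other scalings, filters or probe choices, or left out each array. The number of arrays limits the precision.

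Named were the called genes whose groups did not overlap (up to 4 per class by size), the catalytic and activator genes, the 3 of smallest p where none was called, and up to 4 called genes of each other list. Psmd11, the other chaperones, members near background and genes with discordant probes were added after their values were seen. Members and lists were chosen with earlier results of these data known, and so were the promoter motifs. The RefSeq sequences carry the build GRCm38.p6.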

Additional observations from a re-analysis of the deposited data

How the results depend on the processing

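The count of proteasome genes called with LPS in WT lines was 5 when only the arrays compared entered the fit, and 6 to 15 when 1 array was left out. In KO lines the count was 8 with 75th percentile scaling, 8 with the line as a random replicate block, and 2 to 6 when 1 array was left out. With the line as a fixed replicate block the counts were 5 in KO lines and 12 in WT lines, as without it, with Psmd11 called in place of Psmb6 in WT lines. The median change of the 39 genes with 75th percentile scaling was -0.026 in KO lines and 0.090 in WT lines. With the mean over probes the WT median was 0.27, and with the dimmest kept probe, an alternative chosen after seeing the data, it was 0.29. With 1 array left out, the KO median was 0.059 to 0.12 and the WT median 0.14 to 0.19. The median difference of LPS changes was -0.12 with the mean over probes and -0.14 with the dimmest probe. The median of KO against WT untreated was 0.050 with 75th percentile scaling, 0.037 with the mean over probes, 0.044 with the dimmest probe and 0.0068 to 0.032 with 1 array left out, and with LPS it was -0.082 to -0.023 with 1 array left out. Psmd9 in KO lines was -0.42 with the dimmest probe (adjusted p = 0.163). The counts of 0 between genotypes, and for the difference of LPS changes, stayed at 0 in every alternative run, and the fixed block gives no value for KO against WT. The causes were not tested. With 3 arrays a group, signals near background (Psmd3, Psma8) and differences under the interval widths given could not be resolved.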
